A study of Mus musculus with 4 samples.

Results

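Of 60 listed genes of the non-collagen extracellular matrix, the basement membrane and the enzymes that cut or cross-link matrix, 45 could be tested in lungs of bleomycin-treated A/J mice, and 7 of these differed from the control pool. Timp3, Postn, Mmp3, Lama2 and Adam9 lay above 0, and Lox and Mmp14 lay below it. The 7 were 15.6% of the tested members, close to the 12.5% of all genes tested that differed by the same test. Only Timp3 and Postn did so whichever mouse was left out. The members were found by gene symbol among 13410 genes with a named probe, 8384 of which were tested. Of the other 15 listed genes, 8 had a probe with values on only 1 or 2 arrays, 4 had a probe without any value (Thbs2, Adam12, Adam15 and Adamts1), and 3 had no probe in the annotation used here (Fbn1, Mmp15 and Serpine2).

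The study hybridised amplified lung RNA of each of 4 bleomycin-treated A/J mice to its own 2-colour microarray, together with 1 shared pool made from lungs of control A/J mice. A/J is an inbred laboratory strain, and bleomycin is a DNA-damaging drug used to injure the lung in animals. Dose, route, time after treatment, age, sex, what the controls received and how many mice were pooled are not stated in the labels. Each value is a log ratio of the 2 channels, centred on the median of its array. Neither the base of the logarithm nor the channel on top is stated; base 2 was assumed, and the values would also allow a natural logarithm. If the titles name the numerator first, a value above 0 stands for more RNA in the treated mouse, but with the pool on top every sign below would turn. The text thus states only on which side of 0 a gene lay, and fold sizes hold for base 2 alone.

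The arrays held values for 9427 to 12136 of 17280 spots. Over all genes the centred values of 2 arrays correlated at r = 0.430 to 0.854, highest between mice 3 and 4 and next between mice 1 and 2 (0.708), so all arrays ran the same way. Each p-value sets the mean of a gene against the spread between the 4 arrays. That spread holds differences between treated mice and between arrays alike. With a single pool, control mice contribute no spread of their own. The main fit takes the 4 arrays as independent, although mice 1 and 2, and mice 3 and 4, resembled each other. The table holds ratios and no signal, so whether a probe was above background, or whether markers of lung were present at a high level, could not be checked. In lung tissue as a whole, fewer cells of a type and less RNA per cell cannot be told apart.

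The lung's matrix is built from elastic fibres, in which elastin is laid on a scaffold of fibrillins, fibulins and microfibril proteins, from collagens coated with small leucine-rich proteoglycans such as decorin, and from basement membranes of laminins, nidogens and perlecan under epithelium and endothelium. Matricellular proteins such as periostin and tenascin-C signal to cells more than they bear load, and are known for their part in wound repair. Matrix metalloproteinases, plasmin and the ADAM and ADAMTS families cut these proteins or shed them from cells, and TIMPs and serpins hold the enzymes in check. Bleomycin injury of rodent lung is a widely used model of such remodelling and of fibrosis.

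Of the 45 tested members, 5 passed the test above 0 and 2 below (limma's moderated test of the mean against 0, Benjamini-Hochberg adjusted p at most 0.05 over all 8384 genes). That is 15.6% of the members, beside 12.5% of all genes tested, so the share was close to the background. Among all genes 7.69% passed above 0 and 4.81% below. Each of the 7 members that passed lay on 1 side of 0 in all mice with a value. So did 21 of the 45 tested members in all, or 46.7%, and the same share of all genes, 46.7%. An unadjusted p under 0.05 was found for 44.4% of the members and for 31.8% of all genes. The means of the 45 ran from -0.96 (Vcan) to 1.00 (Ogn) with a median of 0.10, against 0.0015 over all genes, and 28 were above 0 and 17 below. The median SD between mice was 0.250 for the members and 0.169 for all genes.

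The count rested on all 4 mice. Leaving out mouse 1, 3 or 4 left 2 members and leaving out mouse 2 left 3, against 7 with 4 mice. Over all genes the counts without mice 1 to 4 were 317, 573, 296 and 333, against 1048. With mice 1 and 2, and mice 3 and 4, as pairs in a random block it was again 2, beside 402 of all genes. Timp3 and Postn passed in each of these 5 fits, and Mmp3 was the third gene without mouse 2.

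**Figure D1:**
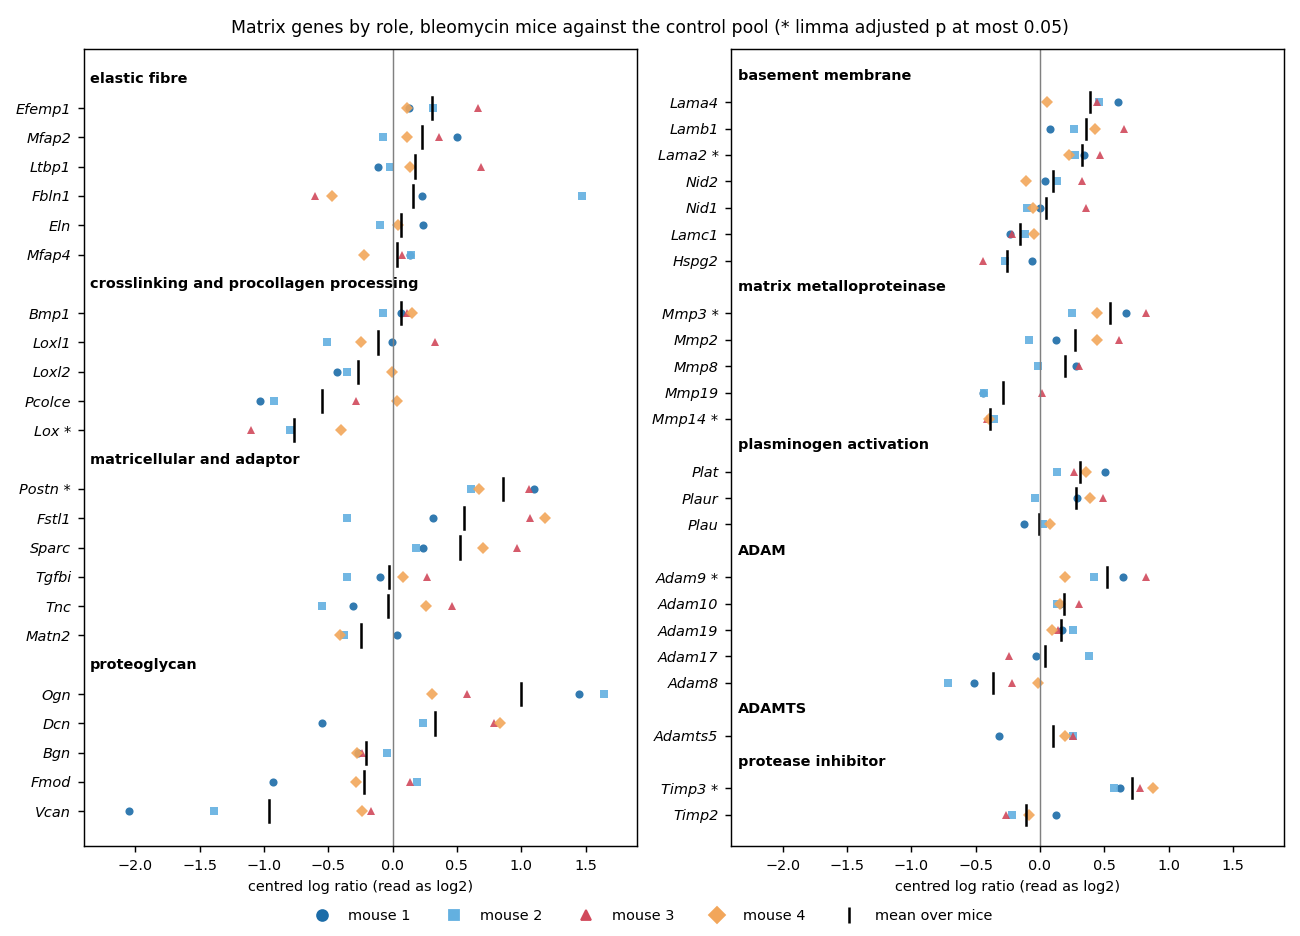
Centred log ratio (x axis, read as log2) of each of the 45 tested members (rows, grouped by role and sorted by mean) in each mouse (symbols), with the mean over mice as a black bar and an asterisk for genes past the test. All mice lie above 0 for Timp3 (0.573 to 0.878) and Postn (0.607 to 1.10), whereas Vcan and Ogn lie farther from 0 in mice 1 and 2 than in mice 3 and 4.

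Inhibitors come first because Timp3 had the smallest adjusted p of all members. Timp3, which encodes an inhibitor that binds to the matrix and blocks metalloproteinases and several ADAM and ADAMTS enzymes, had log ratios of 0.620, 0.573, 0.777 and 0.878 in mice 1 to 4. All 4 mice lay well above 0 and within a narrow range. The mean was 0.71 ± 0.14 (SD, n = 4), 1.64-fold in size, and it passed (limma adjusted p = 0.0096), as it did whichever mouse was left out (adjusted p up to 0.0390). Timp2, the related inhibitor that also takes part in activating Mmp2, had 0.126, -0.214, -0.262 and -0.089. Its mean of -0.11 ± 0.17 (SD, n = 4) did not pass (limma adjusted p = 0.425), with a 95% interval from -0.32 to 0.10. Timp3 exceeded Timp2 on each of 4 arrays, by 0.82 ± 0.24 (SD); the pair was compared with the values known, so this is a description.

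The matricellular genes held the second member with a small adjusted p. Postn, which encodes periostin, a protein of fibroblasts that binds integrins and collagen, had log ratios of 1.10, 0.607, 1.06 and 0.675 in mice 1 to 4. Mice 1 and 3 were high and mice 2 and 4 lower, and none came near 0. Its mean of 0.86 ± 0.26 (SD, n = 4), 1.82-fold in size, passed (limma adjusted p = 0.0125), as it did whichever mouse was left out (adjusted p up to 0.0442). Tgfbi, a TGF-beta-induced relative of periostin, had values on both sides of 0, at -0.095, -0.356, 0.265 and 0.080, with a mean of -0.03 ± 0.26 (SD, n = 4; limma adjusted p = 0.894). Postn exceeded Tgfbi on 4 of 4 arrays, by 0.89 ± 0.25 (SD), again a description of a pair chosen with the values known.

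The 250 bases before the start sites of 4 members past the test are shown because Timp3 and Postn kept their call in every fit and because Mmp3 and Mmp14, described next, lie on opposite sides of 0. They were taken from RefSeq on GRCm38.p6, and each ends at the base before the annotated start. Postn had 2 listed starts, and only the window before 1 of them was read. Such windows were read for 5 of the 7 members past the test, and not for Adam9 or Lox. Capitals mark matches on either strand to a TATA box (TATAAA), a GC box (GGGCGG) or an AP-1 site (TGANTCA).
Timp3, chr10:86300162-86300411, plus strand: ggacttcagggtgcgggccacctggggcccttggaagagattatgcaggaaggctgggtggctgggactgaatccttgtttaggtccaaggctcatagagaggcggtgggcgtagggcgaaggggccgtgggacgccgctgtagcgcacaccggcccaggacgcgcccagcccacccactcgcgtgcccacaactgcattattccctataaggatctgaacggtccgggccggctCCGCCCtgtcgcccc
Postn, chr3:54359017-54359266, plus strand: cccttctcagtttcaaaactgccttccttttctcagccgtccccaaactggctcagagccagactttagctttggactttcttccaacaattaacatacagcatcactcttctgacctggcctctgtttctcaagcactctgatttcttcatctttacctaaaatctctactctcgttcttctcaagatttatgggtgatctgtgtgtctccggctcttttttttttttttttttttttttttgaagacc
Mmp3, chr9:7445572-7445821, plus strand: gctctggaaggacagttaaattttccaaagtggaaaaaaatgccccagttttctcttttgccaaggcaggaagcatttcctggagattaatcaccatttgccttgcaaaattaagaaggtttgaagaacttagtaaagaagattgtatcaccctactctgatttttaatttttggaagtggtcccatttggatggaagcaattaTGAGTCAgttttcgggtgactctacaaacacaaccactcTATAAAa
Mmp14, chr14:54431348-54431597, plus strand: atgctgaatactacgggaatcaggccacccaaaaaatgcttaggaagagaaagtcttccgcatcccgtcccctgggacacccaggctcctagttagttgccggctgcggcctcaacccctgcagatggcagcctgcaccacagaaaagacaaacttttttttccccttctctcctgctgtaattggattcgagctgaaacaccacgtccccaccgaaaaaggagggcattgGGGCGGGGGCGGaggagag
Mmp3 held a TATA box at -7 and an AP-1 site at -46 from the annotated start, counting the first base of the match. Mmp14 held GC boxes at -19 and -13, Timp3 held 1 on the minus strand at -15, and Postn held none of the 3 motifs. Among 27025 promoters of the same length, 13% held the TATA box, 32.9% the GC box and 6.87% the AP-1 site. These matches describe the letters in the windows only.

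Of the matrix metalloproteinases, 5 of 7 were tested, and 1 passed on each side of 0. Mmp3, stromelysin 1, which cuts proteoglycans, laminin and other matrix proteins and can activate other proteases, had log ratios of 0.665, 0.252, 0.821 and 0.440 in mice 1 to 4. All lay above 0, with mice 1 and 3 high as for Postn. Its mean was 0.54 ± 0.25 (SD, n = 4; limma adjusted p = 0.0330). The call was kept without mouse 2 (adjusted p = 0.0381) and lost without mouse 1 (0.102), mouse 3 (0.0869) or mouse 4 (0.0846).

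Mmp14 encodes a membrane-bound metalloproteinase that cuts collagen and activates Mmp2. It had no value in mouse 1 and -0.356, -0.410 and -0.397 in mice 2 to 4. These 3 values hardly differed, and the mean was -0.39 ± 0.03 (SD, n = 3; limma adjusted p = 0.0423). The call was lost in the fit without mouse 1 (adjusted p = 0.0651), which leaves its own values as they were, and without mouse 2 (0.106), 3 (0.130) or 4 (0.146), which rest on 2 values. On the 3 arrays with both genes Mmp3 exceeded Mmp14, by 0.89 ± 0.32 (SD).

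The other metalloproteinases did not pass. Mmp2, gelatinase A, had 0.121, -0.086, 0.611 and 0.445, so that mice 3 and 4 lay above mice 1 and 2 (mean 0.27 ± 0.31, SD, n = 4; limma adjusted p = 0.202). Mmp8, the collagenase of neutrophils, had 0.282, -0.016 and 0.306 in mice 1 to 3. Mmp19 had -0.441, -0.435 and 0.019 in the same mice. Their limma adjusted p-values were 0.265 and 0.192. Mmp9, gelatinase B, had 1 value, -0.250 in mouse 1, and was not tested.

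**Figure D2:**
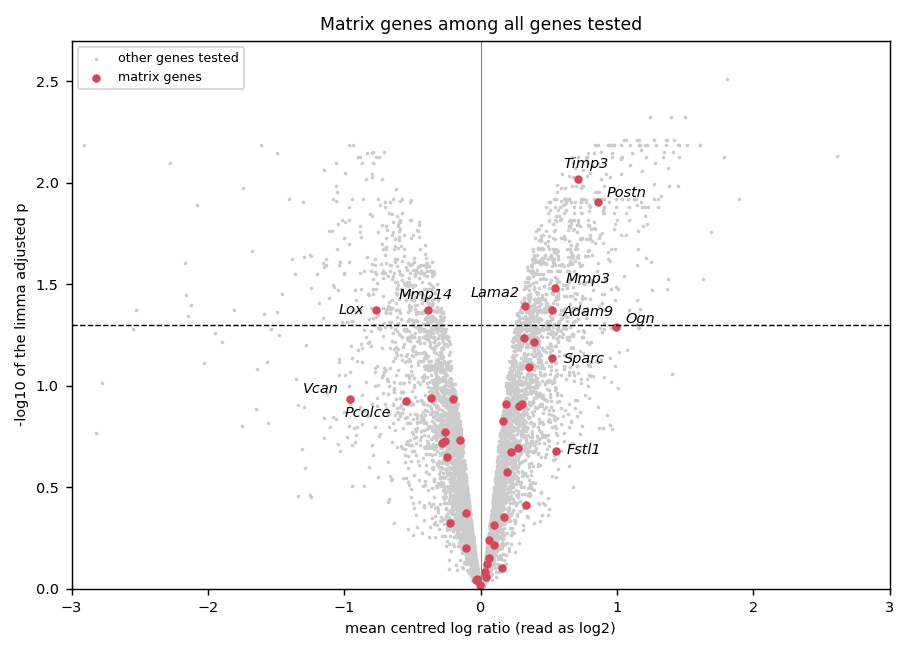
Mean centred log ratio (x axis, read as log2) against -log10 of the limma adjusted p (y axis) for all 8384 genes tested (grey) and the 45 matrix genes (red); the dashed line marks an adjusted p of 0.05, and 1 gene lies outside the x range. The 7 members above the line lie among many other genes, 1048 of which passed.

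Lox had the lowest mean of the members past the test. It encodes lysyl oxidase, the enzyme that starts cross-links in collagen and elastin. It had no value in mouse 1 and -0.799, -1.10 and -0.399 in mice 2 to 4, all below 0 and lowest in mouse 3. The mean was -0.77 ± 0.35 (SD, n = 3), 1.70-fold in size (limma adjusted p = 0.0424). No fit with a mouse left out kept the call: leaving out mouse 1, which has no value here, gave an adjusted p of 0.0629, and leaving out mouse 2, 3 or 4 gave 0.115, 0.108 and 0.0530 on 2 values.

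Its relatives were closer to 0. Loxl1, which acts on elastin, had -0.006, -0.512, 0.326 and -0.249 in mice 1 to 4, and lay below 0 in 3 of 4 mice (mean -0.11 ± 0.36, SD, n = 4; limma adjusted p = 0.630). Loxl2, which acts on collagen of basement membranes, had -0.431, -0.356 and -0.008 in mice 1, 2 and 4 (mean -0.27 ± 0.23, SD, n = 3; limma adjusted p = 0.187). Lox was below Loxl1 on each of the 3 arrays with both, by a mean of 0.62 with an SD of 0.70, so the size of that difference varied as much as the difference itself.

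Of the genes that process procollagen, neither passed. Pcolce, which encodes an enhancer of procollagen C-proteinase, had -1.03 and -0.923 in mice 1 and 2, and -0.282 and 0.037 in mice 3 and 4. Mice 1 and 2 thus lay apart from mice 3 and 4, by more than the mean lay from 0 (mean -0.55 ± 0.51, SD, n = 4; limma adjusted p = 0.118). Bmp1, that proteinase itself, stayed between -0.075 and 0.148 on 4 arrays.

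Of the 11 listed elastic fibre genes 6 were tested, and none passed. All 6 means were above 0, from 0.03 (Mfap4) to 0.31 (Efemp1), with a median of 0.17, but only Efemp1 had the same sign in every mouse. Eln, which encodes elastin, had 0.238, -0.098 and 0.045 in mice 1, 2 and 4, a mean of 0.06 ± 0.17 (SD, n = 3) with a 95% interval from -0.19 to 0.32. An interval of that width leaves room for a modest difference of either sign in elastin. Efemp1, fibulin-3, had 0.131, 0.318, 0.665 and 0.111 (mean 0.31 ± 0.26, SD, n = 4; limma adjusted p = 0.123).

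Fbln1, which encodes a fibulin of elastic fibres and basement membranes, varied most in this group. It had 0.230 and 1.48 in mice 1 and 2, and -0.603 and -0.474 in mice 3 and 4, so the pairs of mice lay on opposite sides of 0. Its mean of 0.16 ± 0.95 (SD, n = 4; limma adjusted p = 0.790) describes none of them, and without mouse 2 it was -0.28. The microfibril genes Mfap2 and Mfap4 had means of 0.23 ± 0.25 and 0.03 ± 0.17 (SD, n = 4). Ltbp1, which tethers latent TGF-beta to microfibrils, had 0.686 in mouse 3 and between -0.111 and 0.138 in the others. Fbln5, a fibulin needed for elastic fibre assembly in mice, had 0.504 and 0.680 in mice 1 and 2 and no value in mice 3 and 4. Fbln2, Mfap5 and Ltbp2 had 1 or 2 values, from -0.239 to 0.131.

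None of the remaining matricellular and adaptor genes passed. Sparc, which encodes a collagen-binding glycoprotein, had 0.237 and 0.182 in mice 1 and 2 against 0.966 and 0.701 in mice 3 and 4. All lay above 0, and the mean of 0.52 ± 0.38 (SD, n = 4) did not pass (limma adjusted p = 0.0729). Fstl1, follistatin-like 1, had 0.316, -0.357, 1.07 and 1.18 (mean 0.55 ± 0.72, SD, n = 4; limma adjusted p = 0.209). Tnc, which encodes tenascin-C, had -0.311 and -0.548 in mice 1 and 2 and 0.461 and 0.257 in mice 3 and 4. For Sparc, Fstl1, Tnc and Tgfbi, mice 3 and 4 thus lay above mice 1 and 2, which Postn did not share. Matn2, a matrilin that links matrix filaments, had 0.037, -0.379 and -0.405 in mice 1, 2 and 4. Thbs1, thrombospondin 1, had 0.019 and -0.028 in mice 1 and 2 only.

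The proteoglycans held both the highest and the lowest mean of all members, and none of the 5 tested of 6 passed. Ogn, which encodes the small leucine-rich proteoglycan osteoglycin, had 1.45 and 1.65 in mice 1 and 2 against 0.578 and 0.310 in mice 3 and 4. It was above 0 in every mouse, with a mean of 1.00 ± 0.65 (SD, n = 4; limma adjusted p = 0.0512). It passed the threshold without centring (adjusted p = 0.0496) and when only genes with 4 values were tested (0.0452).

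Vcan, which encodes the large hyaluronan-binding proteoglycan versican, had the lowest mean and the same split of the mice. It had -2.05 and -1.39 in mice 1 and 2 and only -0.166 and -0.241 in mice 3 and 4 (mean -0.96 ± 0.92, SD, n = 4; limma adjusted p = 0.116). Its 2 probes did not give the same value: in mouse 2 one had -2.38 and the other -0.400, and in mouse 3 they had -0.323 and -0.009. In mice 1 and 4 only the first probe had a value. Ogn exceeded Vcan by 3.50 and 3.03 in mice 1 and 2 and by 0.744 and 0.551 in mice 3 and 4.

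Dcn and Bgn encode the closely related proteoglycans decorin and biglycan, and had means on opposite sides of 0. Dcn had -0.545, 0.233, 0.792 and 0.838 in mice 1 to 4, with mice 3 and 4 again the higher (mean 0.33 ± 0.64, SD, n = 4; limma adjusted p = 0.389). Bgn was below 0 in every mouse, at -0.266, -0.041, -0.241 and -0.273 (mean -0.21 ± 0.11, SD, n = 4; limma adjusted p = 0.116). Dcn was the higher in 3 of 4 mice, and the difference averaged 0.53 ± 0.66 (SD). Fmod, fibromodulin, had -0.930 in mouse 1 and between -0.287 and 0.191 in the others. Lum, lumican, had 1 value, 0.026 in mouse 4.

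**Figure D3:**
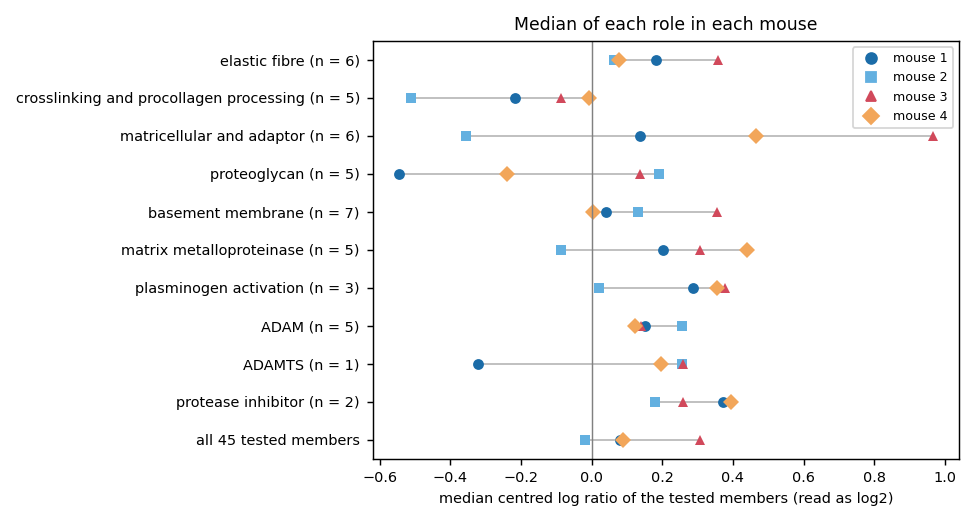
Median centred log ratio (x axis, read as log2) over the tested members of each role (rows, with the number of genes) in each mouse (symbols); the grey line joins the lowest and highest mouse. The matricellular median spans -0.36 in mouse 2 to 0.97 in mouse 3, while the ADAM median stays between 0.12 and 0.26.

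Of 8 listed basement membrane genes 7 were tested, 1 passed above 0 and 0 below, and 5 had the same sign on every array. Lama2, the alpha chain of muscle and mesenchymal basement membranes, had 0.340, 0.275, 0.463 and 0.223 in mice 1 to 4, a narrow range above 0. Its mean of 0.33 ± 0.10 (SD, n = 4), 1.25-fold in size, passed (limma adjusted p = 0.0406) but did so in no fit with a mouse left out (adjusted p = 0.116, 0.0850, 0.116 and 0.0901 without mice 1 to 4).

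Lama4, the alpha chain of vascular basement membranes, had 0.607, 0.455, 0.444 and 0.055 (mean 0.39 ± 0.24, SD, n = 4; limma adjusted p = 0.0613). Lamb1, a beta chain, had 0.079, 0.268, 0.655 and 0.424 (mean 0.36 ± 0.24, SD, n = 4; limma adjusted p = 0.0813). Both were above 0 in 4 of 4 mice and missed the threshold. Lamc1, the gamma chain found in most laminins, was below 0 in every mouse, from -0.231 to -0.045 (mean -0.15 ± 0.09, SD, n = 4; limma adjusted p = 0.185). Lamb1 exceeded Lamc1 on 4 of 4 arrays, by 0.51 ± 0.25 (SD), as a description. Lamc3, another gamma chain from the second list described below, was named after its value was seen. It was above 0 on all 3 arrays with a value (0.405, 0.544 and 0.221 in mice 1 to 3, limma adjusted p = 0.0645).

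Nid1 and Nid2, the nidogens that join laminin and collagen networks, had means of 0.05 ± 0.21 and 0.10 ± 0.18 (SD, n = 4) and differed by only -0.05 ± 0.13 (SD, Nid1 minus Nid2). Hspg2, which encodes perlecan, had -0.060, -0.271 and -0.444 in mice 1 to 3 (mean -0.26 ± 0.19, SD, n = 3; limma adjusted p = 0.169). Lamb2 had 1 value, 0.415 in mouse 4.

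Of the plasminogen system none of 3 genes passed. Plat, tissue plasminogen activator, was above 0 in 4 of 4 mice at 0.503, 0.133, 0.268 and 0.354 (mean 0.31 ± 0.16, SD, n = 4; limma adjusted p = 0.0579). Plau, urokinase, had -0.122, 0.022 and 0.075 in mice 1, 2 and 4, with a mean of -0.01 ± 0.10 (SD, n = 3) and a 95% interval from -0.23 to 0.21. Plaur, the receptor of urokinase, had 0.287, -0.041, 0.487 and 0.386 (mean 0.28 ± 0.23, SD, n = 4; limma adjusted p = 0.126). Plat and Plaur had like means, while Plau stayed near 0.

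Among the ADAM genes, 1 of 5 tested passed, above 0. Adam9, a membrane metalloproteinase and disintegrin that sheds surface proteins, had 0.648, 0.417, 0.827 and 0.193 in mice 1 to 4, always above 0. The mean was 0.52 ± 0.28 (SD, n = 4), 1.43-fold in size (limma adjusted p = 0.0424), and the call was lost without mouse 1 (adjusted p = 0.127), 2 (0.0838), 3 (0.106) or 4 (0.0539). Adam8, which is known from myeloid cells, had -0.514, -0.715, -0.216 and -0.016, all below 0 (mean -0.37 ± 0.31, SD, n = 4; limma adjusted p = 0.115). Adam9 exceeded Adam8 on 4 of 4 arrays, by 0.89 ± 0.45 (SD).

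Adam10 and Adam19 were above 0 in every mouse with small means, 0.18 ± 0.08 and 0.16 ± 0.07 (SD, n = 4; limma adjusted p = 0.123 and 0.149). The 2 probes of Adam10, a sheddase of Notch and cadherins, had means of 0.27 and 0.08, and the second was below 0 in mice 1 and 2. Adam17, the enzyme that releases TNF, had -0.029, 0.381 and -0.237 in mice 1 to 3. Adamts5, an aggrecanase that also cuts versican, had -0.322 in mouse 1 and 0.256, 0.260 and 0.196 in mice 2 to 4.

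**Figure D4:**
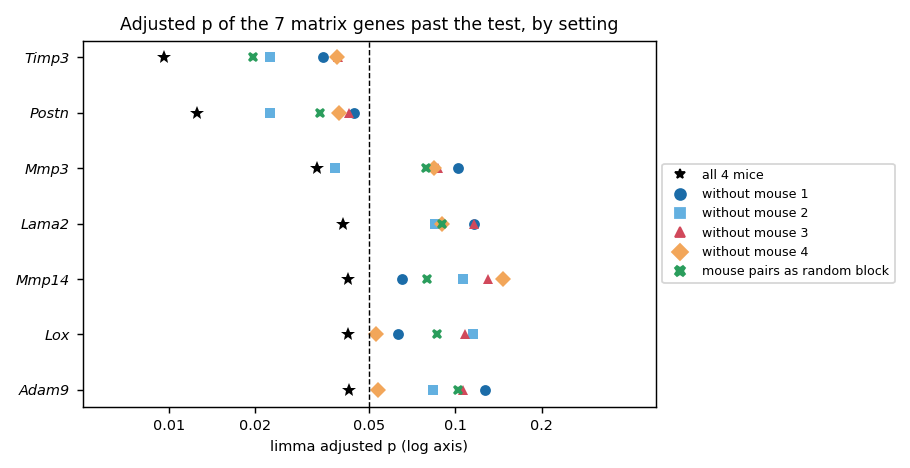
Limma adjusted p (x axis, log scale) of the 7 members past the test with all 4 mice (stars), without each mouse, and with the mouse pairs as a random block; the dashed line marks 0.05. Timp3 and Postn stay left of the line in all 6 fits, Mmp3 in 2, and the other 4 genes in 1.

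Mice 1 and 2, and mice 3 and 4, resembled each other in these values, as they did over all genes. Over the tested members the log ratios of mice 3 and 4 correlated at r = 0.813 (37 genes) and those of mice 1 and 2 at 0.716 (43 genes), whereas the other 4 pairs of mice gave 0.235 to 0.489. These are correlations across genes, which share arrays and the pool and are not independent replicates. The labels give no batch, and the part of such a batch in the values was not tested.

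A second list of 145 matrix genes outside the 60 held 74 tested genes, of which 12 passed above 0 and 1 below, or 17.6% beside 12.5% of all genes. Of 12 genes listed as other elastic fibre and cross-linking genes 3 passed, all above 0 (mean ± SD, n = 4 each). They were Ltbp4 (0.66 ± 0.38), a TGF-beta-binding protein needed for elastic fibres in mice, Mfap1a (0.37 ± 0.16) and Ltbp3 (0.34 ± 0.12). Mfap1a was listed by its name but encodes a nuclear splicing protein, and the counts here include it. Of 16 glycoproteins 3 passed above 0: Sparcl1 (0.89 ± 0.50), a relative of Sparc, Matn4 (0.57 ± 0.13) and Ecm1 (0.28 ± 0.08; SD, n = 4 each). Of 8 proteoglycan genes 2 passed above 0: the syndecan gene Sdc2 (0.61 ± 0.33) and the endothelial gene Esm1 (0.53 ± 0.25; SD, n = 4 each). All 8 other basement membrane genes had means above 0, and 1 passed, the agrin gene Agrn (0.50 ± 0.26, SD, n = 4).

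Of 18 other matrix proteases, the serine protease genes Htra1 (0.71 ± 0.36) and Htra3 (-0.37 ± 0.13; SD, n = 4 each) passed on opposite sides of 0. Of 12 genes listed as other inhibitors 2 passed above 0. Serpinh1, listed for its serpin family though it serves as a collagen chaperone, was at 0.97 ± 0.20 (SD, n = 4, limma adjusted p = 0.00747). Reck, a membrane-anchored inhibitor of metalloproteinases, was at 0.75 ± 0.09 (SD, n = 3, limma adjusted p = 0.0141). Of these 13 genes only Serpinh1 passed whichever mouse was left out; Matn4 was lost without mouse 3 or 4 (adjusted p = 0.0525 and 0.0527), Reck without mouse 1 or 4 (0.0598 and 0.0520), and the other 10 in at least 3 of the 4 fits. Over the whole second list the count past the test was 2, 9, 3 and 2 without mice 1 to 4, and 3 of those 9 were not among the 13. Well-known genes of lung injury in this list could not be tested: Fn1 and Spp1 had no probe in the annotation used here, Mmp7 and Timp1 no value, and Mmp12 values in mice 3 and 4 only (0.439 and 0.390).

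Markers of cell types that make or surround matrix were set beside these values, and their part in the results was not tested. Of 12 fibroblast genes 11 were tested. Inmt (mean 1.78), Cdh11 (0.83) and Dpep1 (0.84) passed above 0 and Pi16 (-0.48), named after its value was seen, below. Inmt and Cdh11 kept the call whichever mouse was left out, Dpep1 lost it without mouse 1 (limma adjusted p = 0.0515), and Pi16 lost it in all 4 fits (0.0585 to 0.0796). The median was 0.07, and -0.02 to 0.22 in single mice; the list shares Mfap4 with the members. Of 10 genes of smooth muscle and myofibroblasts 7 were tested and none passed, with a median of -0.09, and -0.25 to 0.01 in single mice. Those with the smallest p were Notch3, Lmod1 and Tagln, and the defining markers Acta2 and Myh11 had values in at most 2 mice. Of 6 mesothelial genes Krt19 and Msln were tested and did not pass.

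Endothelial genes stood highest: of 13 listed 9 were tested and 7 passed above 0, led by Tmem100 (mean 1.61), S1pr1 (1.03) and Tek (1.18), with a median between 0.76 and 1.11 in each mouse. These 3 and Cav1 kept the call whichever mouse was left out. Pecam1 and Cldn5 lost it without mouse 4 (limma adjusted p = 0.0652 and 0.0521) and Emcn in all 4 fits (0.0762 to 0.131). Among all genes tested 7.69% passed above 0. Some endothelial markers could not be tested: Cdh5 had no value and Vwf no probe in the annotation used here. Kdr had -0.124 and -0.204 in mice 2 and 3 only, and Eng had 0.228 and 0.317 in mice 1 and 2 only. Of 12 alveolar epithelial genes 10 were tested and had a median from 0.10 in mouse 2 to 1.07 in mouse 1. Sftpa1 (1.28), Rtkn2 (1.19) and Cav1 (0.91) passed above 0, Cav1 being also in the endothelial list, and Aqp5 (-0.34), named after its value was seen, passed below. The list had 8 means above 0 and 2 below, those of Aqp5 and Pdpn (-0.50, limma adjusted p = 0.0717). Pdpn was below 0 in 4 of 4 mice, and Sftpc and Sftpd had values on both sides of 0. These genes were also named after their values were seen. Rtkn2 lost the call without mouse 4 (limma adjusted p = 0.0503) and Aqp5 in all 4 fits (0.0699 to 0.131). Of 8 airway genes, all tested, Cbr2 (1.17) passed above 0 and Reg3g (-1.75) below, and Krt5 (-1.15) came next by p. The airway list had 2 means above 0 and 6 below, with a median of -0.20. Reg3g kept the call whichever mouse was left out, and Cbr2 lost it without mouse 1, 3 or 4 (limma adjusted p = 0.119, 0.115 and 0.114).

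Of 11 macrophage genes 5 were tested, with 2 means above 0, 3 below and a median of -0.065. Mrc1 (0.74) and Apoe (0.96) passed above 0, and Itgax (-0.31) came next by p. Mrc1 lost the call without mouse 3 or 4 (limma adjusted p = 0.0721 and 0.0772), and Apoe without mouse 1, 3 or 4 (0.0823, 0.0768 and 0.106). Of 11 neutrophil genes 5 were tested, with 1 mean above 0, 4 below and a median of -0.33. S100a8 (-2.28) and S100a9 (-2.08) passed below 0, and Camp (-0.33) came next by p. S100a8 kept the call whichever mouse was left out, S100a9 lost it without mouse 4 (limma adjusted p = 0.0502), and Camp passed without mouse 2 (0.0451). Of 14 striated muscle genes 10 were tested and 4 passed, all below 0: Tnnc2 (-4.90), Myl1 (-2.91), Ldb3 (-1.67) and, named after its value was seen, Cox7a1 (-2.16). Tnnc2 and Myl1 kept the call whichever mouse was left out, Ldb3 lost it without mouse 3 or 4 (limma adjusted p = 0.0687 and 0.0656), and Cox7a1 without mouse 1, 3 or 4 (0.106, 0.0756 and 0.0897). The median of the 10 tested muscle genes was -2.95 in mouse 1 and -0.30 in mouse 3, at the ends of the range. In mouse 3 the genes past the test had -2.80 (Myl1), -1.81 (Ldb3) and -3.52 (Cox7a1), and Tnnc2 had no value. Of 10 fat cell genes 5 were tested and 4 passed, all below 0: Gpd1 (-0.54), Plin4 (-0.79), Cidea (-2.53) and, named after its value was seen, Adipoq (-1.59). All 4 kept the call without mouse 2 and lost it without mouse 1, 3 or 4. Their limma adjusted p in these fits was 0.0755 to 0.0883 for Gpd1, 0.0520 to 0.0985 for Plin4, 0.0715 to 0.123 for Cidea and 0.121 to 0.132 for Adipoq. The median of the tested fat cell genes was -2.19 in mouse 3 and -0.20 in mouse 2, at the ends of the range. The medians of the muscle and fat lists thus did not order the mice alike. Single genes could differ from their list, as Cox7a1 was lowest in mouse 3 and highest in mouse 2, like Cidea.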

How the data were processed

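The deposited table holds 1 log ratio of the 2 channels per spot and array, taken as log2; dyes, scanner, background correction, normalization and the rule for empty spots are not stated in the labels or the file header. The 4 samples, titled as bleomycin-treated A/J mice 1 to 4 against a control pool, form 1 group. Each array was centred on its median. Probes were named by the platform annotation (14722 of 17280 spots with 1 symbol), and gene IDs of 14445 were matched to RefSeq, GRCm38.p6, which changed 0 symbols. Probes of a symbol were averaged per array, and genes with at least 3 values were tested with limma 3.58.1 in R 4.3.3 (lmFit, eBayes, two-sided). A run of the fit on simulated data came first. It drew each array independently, so it could not show how the test behaves when mice resemble each other in pairs. No count of reads exists for arrays, so their number limits the precision. The table had 0 other columns of per-sample values.

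The 60 members, their roles, the second matrix list, the marker lists and the mouse pairs were chosen with earlier results of these data known. Named were all members, every gene of the second list past the test, and up to 3 genes with the smallest p per marker list. Lamc3 of the second list and other marker genes were named after their values were seen. Alternatives were no centring, genes with 4 values, the median over probes, probes with 3 values, single probes, robust eBayes, the mouse pairs as a random block, and each mouse left out. No paired analysis was possible because there is 1 group and 1 pool.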

Additional observations from a re-analysis of the deposited data

Results flagged for a closer look

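In 3 of the 35 members with 4 values, 1 mouse stood apart by Dixon's criterion; chance gives this in about 1 of 20 groups. Bgn was highest in mouse 2, at -0.041, with the others between -0.273 and -0.241. Adam10 was highest in mouse 3, at 0.303 (0.3025 before rounding), with the others between 0.129 and 0.154. That value averages 2 probes that disagreed on the highest mouse. One had 0.453 in mouse 1 and 0.212 in mouse 3, and the other -0.149 in mouse 1, 0.393 in mouse 3 and no value in mouse 4. Adamts5 was lowest in mouse 1, at -0.322, with the others between 0.196 and 0.260. All 3 genes missed the test with all mice (limma adjusted p = 0.116, 0.123 and 0.608).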

How the results depend on the processing

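Without centring, with the median over probes, with probes that had 3 values, with single probes and with robust eBayes, the counts of all genes, of the listed matrix genes and of the second matrix list past the limma test kept within 1.5 times their main values. With 4 values required, the 2 listed genes below 0, Lox and Mmp14, could not be tested and their count was 0. With a mouse left out, the count of all genes past the test ran from 296 to 573 against 1048 (198 to 411 against 645 above 0, and 86 to 162 against 403 below). That of the listed matrix genes ran from 2 to 3 against 7 (2 to 3 above 0 against 5, and 0 to 0 below against 2). That of the second list ran from 2 to 9 against 13 (2 to 9 above 0 against 12, and 0 to 0 below against 1). With the mouse pairs as a random block the counts were 402 genes (286 above 0 and 116 below), 2 listed genes (2 above and 0 below) and 3 of the second list (3 above and 0 below). The 80 recomputed role medians stayed within 1 SD between mice of their main value, yet several moved. The proteoglycan median was 0.01333 without mouse 1, against -0.2052 with all mice. With 4 values required, the medians became 0.5215 against 0.2475 (matricellular), 0.2116 against 0.098 (basement membrane), 0.4086 against 0.1907 (metalloproteinases) and -0.1103 against -0.265 (cross-linking). With a mouse left out they ran from 0.1248 to 0.3852 (matricellular), from 0.02133 to 0.166 (basement membrane) and from 0.133 to 0.294 (metalloproteinases), and the single ADAMTS gene from 0.04333 to 0.2373 against 0.0975. The other role medians kept their sign and moved less than 1.5 times. No paired analysis was possible because there is 1 group and 1 pool.

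Among the members, none past the test changed sign in any of these settings. Members near 0 did when 1 mouse was left out, and the cause was not tested. Over the fits with 1 mouse left out, the mean ran from -0.0265 (without mouse 1) to 0.1415 for Eln, from -0.2823 (without mouse 2) to 0.4103 for Fbln1, and from -0.005333 to 0.1177 for Mfap4, which was also below 0 without mouse 1 (-0.002333). It ran from -0.2557 to 0.02367 (without mouse 2) for Loxl1, from -0.2007 to 0.1357 (without mouse 2) for Tnc, which also turned without mouse 1 (0.05667), and from -0.1237 to 0.08333 (without mouse 2) for Tgfbi. It ran from -0.3603 to 0.01333 (without mouse 1) for Fmod, from -0.05167 (without mouse 3) to 0.1 for Nid1, from -0.05 to 0.0485 (without mouse 1) for Plau, and from -0.133 (without mouse 2) to 0.176 for Adam17. For the marker Krt19 it ran from -0.466 to 0.1093 (without mouse 1). With 3 or 4 values per gene and no channel signal in the table, precision is limited by the number of arrays.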
